A study of Mus musculus with 8 samples.

Results

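A set of 9 receptors of the B cell surface that carry inhibitory tyrosine motifs was examined in marginal zone B cells: Cd22, Siglecg, Cd72, Fcgr2b, Pirb, Lair1, Pecam1, Ceacam1 and Cd5. The 9 genes were listed by name, with earlier results of these data known. All 9 were found among the 23997 genes of the table. The study sequenced RNA of marginal zone B cells, the splenic B cells that face the blood, from C57BL/6 mice. The labels list 8 libraries, 4 with the genotype ACKR3+ (titled GFPposi) and 4 with the genotype ACKR3- (titled GFP-). ACKR3 is an atypical chemokine receptor for CXCL12. The sources used here give neither the age of the mice, nor any treatment, nor the construct behind the GFP signal.

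Each gene has an estimated fragment count and a variance in 2 pooled columns, q1 and q2. No label ties either column to a genotype, so each value below is named by its column and has no direction with respect to ACKR3. There is no value per library, no replicate check and no p-value. The value after ± is the SD implied by the deposited variance, and for a log2 ratio of q2 over q1 it is the first-order SD of that ratio. Whether this variance refers to 1 library or to a condition's mean is not stated. Nor is it stated whether it was set from each gene alone or from genes of like count. Ratios were read against the 9582 genes with 100 fragments or more in at least 1 column, which had a median log2 ratio of 0.00. Of the receptors, 8 passed this minimum, and Cd5 did not.

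An immunoreceptor tyrosine-based inhibitory motif (ITIM) is a short cytoplasmic stretch around a tyrosine. When the B cell receptor is engaged, the Src family kinase Lyn phosphorylates this tyrosine, and the phosphatases SHP-1, SHP-2 or SHIP-1 dock there and dampen calcium and kinase signals. CD22 and Siglec-G read sialic acid on neighbouring glycoproteins, CD72 binds semaphorin 4D, FcγRIIB binds the Fc part of IgG, PIR-B binds MHC class I, LAIR-1 binds collagen, PECAM-1 and CEACAM1 bind themselves on other cells, and CD5 sets signalling thresholds in T cells and B-1 cells. Most of these receptors are also made by other leukocytes, and PECAM-1 is abundant on platelets and endothelium.

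The motif is what these proteins of several families share, and its coding sequence is shown here for each receptor. The translated longest coding sequence of each gene in GENCODE M21 (GRCm38) was searched for isoleucine, valine, leucine or serine, any residue, tyrosine, any pair of residues, and isoleucine, leucine or valine. All 9 receptors held at least 1 match, with 26 matches in all: Cd22 had 5, Siglecg, Cd72 and Pirb had 4 each, Pecam1 had 3, Lair1 and Cd5 had 2 each, and Fcgr2b and Ceacam1 had 1 each. These letters are common, being found in 49.1% of 21517 genes with a coding sequence, so a match is a description and not a working motif in itself. The 14 stretches below are the up to 2 matches per receptor nearest the cytoplasmic end of the protein and within 60 residues of it. That end is the C-terminus, except in Cd72, whose N-terminus lies in the cytoplasm. They read 5′ to 3′ on the coding strand, with the tyrosine codon in capitals and its residue number counted from the start methionine.
Cd22 tyrosine 843: atccatTACtcagagctg
Cd22 tyrosine 863: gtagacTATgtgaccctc
Siglecg tyrosine 659: ctccacTATgctgctctc
Siglecg tyrosine 682: tctgatTACacagaggtc
Cd72 tyrosine 7: atcacgTATgcagacctg
Cd72 tyrosine 39: ctcaccTACgagaatgtg
Fcgr2b tyrosine 319: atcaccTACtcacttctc
Pirb tyrosine 794: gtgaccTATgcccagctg
Pirb tyrosine 824: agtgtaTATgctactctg
Lair1 tyrosine 228: gtgacgTATatccagctg
Lair1 tyrosine 257: agcacaTATgcagccatc
Pecam1 tyrosine 679: gtagaaTACacagaagtg
Ceacam1 tyrosine 488: gtcgcaTACactgtcctg
Cd5 tyrosine 464: tctgctTATccagctctg

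All of these stretches are exonic and coding. The Cd22 pair lies in the last exon, exon 16, at chr7:30866600-30866617 and chr7:30866540-30866557 on the minus strand. The Siglecg pair lies in its last exon, exon 12, at chr7:43417979-43417996 and chr7:43418048-43418065 on the plus strand. The Cd72 stretches sit in exon 1 (chr4:43454498-43454515) and exon 2 (chr4:43454306-43454323), at the other end of the gene from the last exon. The Fcgr2b stretch is in exon 10 at chr1:170961071-170961088. Both Pirb stretches are in exon 15 (chr7:3712786-3712803 and chr7:3712696-3712713), and both Lair1 stretches are in exon 8 (chr7:4009790-4009807 and chr7:4009703-4009720). Those of Pecam1 and Ceacam1 are in exon 14 (chr11:106679577-106679594) and exon 9 (chr7:25463874-25463891). The Cd5 stretch is split by an intron between exons 9 and 10 and spans chr19:10719622-10720230. The table gives 1 value per gene, so it does not show whether the transcripts counted held these exons.

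All 14 marginal zone genes on the list reached 100 fragments, and all 14 were higher in q1. Their fragments summed to 179712 in q1 and 143013 in q2, of which Cr2 had 81167 and 70851. All 9 follicular and 11 germinal center genes in the table reached 100 fragments too, so reaching it does not identify the cells. Genes of other B cell states also differed between the columns. Germinal center genes summed to 2587 and 10464 fragments and plasma cell genes to 27024 and 64800, both higher in q2. Of the germinal center sums, Mki67 had 1190 and 4991 fragments and Top2a 658 and 2344. Of the plasma cell sums, Igj had 3234 and 33006, while Irf4, at 10113 and 8357, was the 1 gene higher in q1. Follicular genes summed to 28470 and 32828, with 6 of the 9 higher in q2 and 3 in q1. Ackr3 itself had 1030 fragments in q1 and 149 in q2. In pooled RNA, fewer cells of a type and less RNA per cell cannot be told apart, and the part of these states in the receptor values below was not tested.

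Between the columns, the median size of the log2 ratio was 0.14 in the 8 receptors past the minimum, beside 0.10 in the 9582 genes. Among the receptors, Lair1 differed most. None of the 8 that passed the minimum was at least 2-fold apart, where 2.28% of the 9582 genes were. Lair1 was the 1 receptor at least 1.5-fold apart, beside 4.97% of all genes (1.58% toward q1, the side of Lair1). It was also the 1 receptor more than 2 deposited SD apart, beside 6.26% of genes (2.11% toward q1). In all, 3 receptors were more than 1 deposited SD apart, beside 19.5% of genes: Lair1 and Siglecg toward q1, where 8.41% of genes were, and Cd72 toward q2, where 11.1% were. In direction alone, 6 receptors were higher in q2 and 2 in q1, where 50.2% and 49.8% of all genes were. The median log2 ratio of the 8 was 0.08, and their ratios ran from -0.72 to 0.25. A count of 1 among 8 genes is too small to be set apart from those background shares. Together the 9 receptors held 69198 fragments in q1 and 71369 in q2, or 0.41% and 0.429% of the column totals of 16877559 and 16653774.

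**Figure D1:**
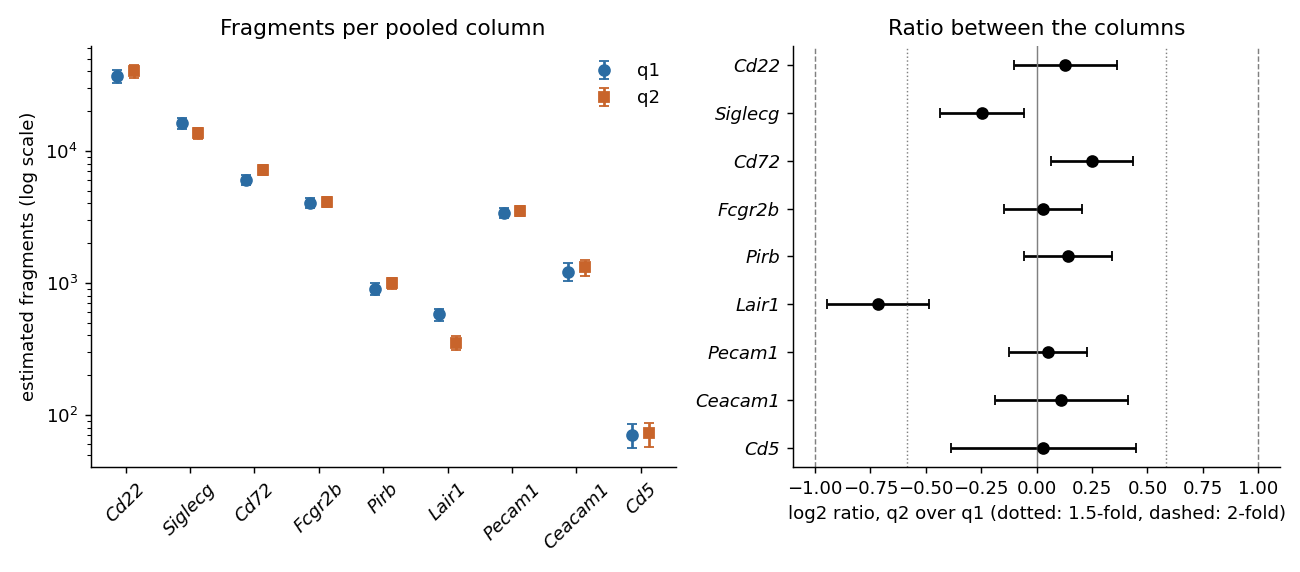
Left, estimated fragments of each receptor in q1 (circles) and q2 (squares) on a log scale, with bars of 1 deposited SD; right, the log2 ratio of q2 over q1 with its SD, dotted lines at 1.5-fold and dashed lines at 2-fold. Lair1, at -0.72, is the receptor whose bar lies clear of 0 by the widest margin, while Cd22, Fcgr2b, Pirb, Pecam1, Ceacam1 and Cd5 have bars that cross 0.

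Per transcript length, the set was dominated by the sialic acid receptors. Fragments were divided by the length of the longest annotated transcript to compare genes. Cd22 led with 9228 ± 1042 fragments per kb in q1 and 10091 ± 1162 in q2. Siglecg followed with 4068 ± 382 and 3424 ± 315, and Cd72 with 2342 ± 212 and 2784 ± 254. Fcgr2b (1145 and 1167) and Pecam1 (993 and 1028) formed the middle, and they differed from each other by 1.17 SD in q1 and 1.04 in q2. Ceacam1 (333 and 359) and Pirb (237 and 261) came next and were 1.69 and 1.77 SD apart. Lair1 stood at 84.6 ± 9.0 and 51.5 ± 6.2, and Cd5 was lowest at 23.8 ± 4.9 and 24.3 ± 5.0. The order was the same in both columns, although Siglecg and Cd72 were 3.95 SD apart in q1 and 1.58 in q2.

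**Figure D2:**
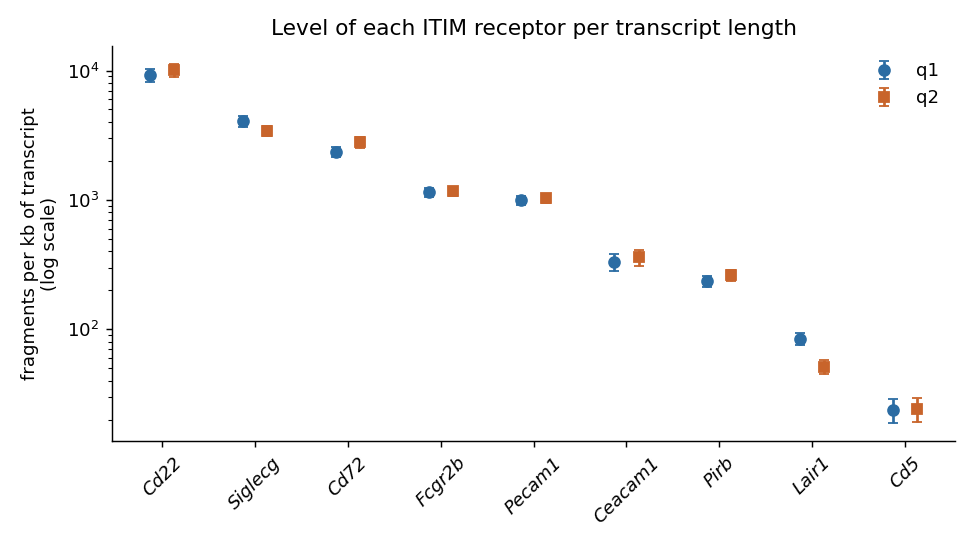
Fragments per kb of the longest annotated transcript (log scale) for each receptor in q1 (circles) and q2 (squares), with bars of 1 deposited SD, ordered by the level in q1. Cd22 is at the top with 9228 and 10091 fragments per kb, and Lair1 is the gene whose symbols are farthest apart, at 84.6 and 51.5.

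Cd22 made up 50.01% ± 3.1 of the summed per-kb level in q1 and 52.6% ± 3.1 in q2. The sum over all 9 was 18453 ± 1139 fragments per kb in q1 and 19190 ± 1239 in q2, so neither value moved by more than its SD. The order depends on the length used. With the median length of each gene's annotated transcripts, Cd72 stood above Siglecg in both columns, and Lair1 stood above Pirb in q1.

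The sialic acid receptors lay on opposite sides of 0, neither by more than 2 deposited SD. Cd22 (chromosome 7, 30865402 to 30880342), the B cell lectin for α2,6-linked sialic acid, had 36672 ± 4142 fragments in q1, against 40102 ± 4618 in q2. Its log2 ratio was 0.13 ± 0.23, and the columns overlapped within 1 SD. Siglecg (chromosome 7, 43408204 to 43418358), a lectin that restrains calcium signals most of all in B-1 cells, had 16234 ± 1523 fragments in q1, against 13667 ± 1258 in q2. It was higher in q1 at -0.25 ± 0.19, or 1.31 SD, and 17.5% of all genes were at least as far apart.

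Of the 22 genes for ligands and sialic acid supply, 20 passed the minimum, and none of these was 2-fold apart, beside 2.28% of genes. With 11 toward q1 and 9 toward q2, their median log2 ratio was -0.01. The enzyme that makes the ligand of CD22 was the most different of them. St6gal1, the α2,6-sialyltransferase, stood at 2603 in q1 against 4575 in q2, a log2 ratio of 0.81 ± 0.18. Cmah, which converts the sialic acid Neu5Ac to Neu5Gc, the form that mouse CD22 prefers, had 3806 and 5597 fragments, at 0.56 ± 0.18. Both were more than 2 deposited SD higher in q2. In the other direction, St3gal2, an α2,3-sialyltransferase, stood at -0.40 ± 0.19, also past 2 deposited SD, and its relative St3gal4 at -0.55 ± 0.55, within 1.01 SD. The sialic acid synthesis genes Gne and Cmas stood at -0.06 ± 0.19 and 0.04 ± 0.22, and Siae and Casd1, which remove and add the acetyl group that masks sialic acid from CD22, at 0.08 ± 0.24 and -0.01 ± 0.19. Germinal center and plasma cell genes were higher in q2 beside St6gal1 and Cmah, and their part in it was not tested.

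Cd72 was the receptor with the largest ratio toward q2. Cd72 (chromosome 4, 43446462 to 43454628), a C-type lectin, had 6051 ± 546 fragments in q1, against 7190 ± 657 in q2. The ratio was 0.25 ± 0.19, or 1.34 SD. Its ligand gene Sema4d, the semaphorin CD100, had 5908 and 6294 fragments, at 0.09 ± 0.18. Of the 3422 exonic bases of Cd72, 1423 overlap exons of Tesk1 on the opposite strand. Tesk1, a testis-expressed protein kinase gene, had 616 and 704 fragments, at 0.19 ± 0.61. No source used here says whether the counting used strand, so fragments in the shared bases may be split between the genes.

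Fcgr2b, the inhibitory IgG receptor, was nearly the same in both columns. It (chromosome 1, 170958617 to 170976547) had 4057 ± 349 fragments in q1, against 4137 ± 356 in q2, at 0.03 ± 0.18. The activating Fc receptors were scarce. Fcgr3, whose extracellular part closely resembles that of Fcgr2b, had 14.3 and 7.47 fragments, Fcgr4 had 26.2 and 10.7, Fcgr1 had 2.95 and 1.24, and their signalling chain Fcer1g had 31.8 and 38.0. All 4 lay below the minimum of 100 in both columns.

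Lair1 had the largest difference of the set. Lair1 (chromosome 7, 4003402 to 4063204), the collagen receptor, had 578 ± 61 fragments in q1, against 351 ± 43 in q2. The columns did not overlap within 1 SD, and the ratio was -0.72 ± 0.23, a 1.64-fold difference of 3.09 SD. Of all genes, 363 (3.79%) were at least as far apart, and 2.81% of the 3948 genes with a mean count within 2-fold of that of Lair1. Pirb (chromosome 7, 3711409 to 3720391), the paired receptor for MHC class I, lies 283 kb from Lair1 and did not share this difference. It had 905 ± 88 fragments in q1, against 998 ± 96 in q2, at 0.14 ± 0.20. The change in the ratio of Pirb to Lair1, from 1.57 to 2.84, was 0.86 ± 0.30 on the log2 scale.

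The activating Pira genes share nearly identical extracellular sequence with Pirb, so reads may be split among them. Pira2, the 1 Pira row past the minimum, had 233 and 279 fragments, at 0.26 ± 0.33. Summed over Pirb, Lilra6 and 4 Pira rows, the fragments were 1262 ± 102 and 1463 ± 109, at 0.21 ± 0.16. These SDs treat the rows as independent, which may not hold where reads are split among them. The MHC class I genes, whose products PIR-B binds, lay close to 0: H2-K1 stood at -0.20 ± 0.24, H2-D1 at -0.12 ± 0.22 and B2m at 0.03 ± 0.22, all within 1 SD.

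Receptors and an adaptor shared with myeloid cells lay on both sides of 0. Lilrb4, an ITIM receptor of the same gene family as Pirb, had 675 and 333 fragments, at -1.02 ± 0.23. Sirpa, the ITIM receptor for CD47, had 1250 and 732, at -0.77 ± 0.20. Tyrobp, the ITAM adaptor DAP12 of activating myeloid receptors, had 757 and 546, at -0.47 ± 0.21. On the other side and within 1 SD were Clec12a, an ITIM lectin of myeloid cells, with 293 and 306 at 0.06 ± 0.26, the ITIM receptor Milr1 at 0.10 ± 0.29, and Pira2 and Pirb as given above. Of the 20 macrophage and monocyte markers, 18 were also higher in q1. Only 9 of the 20 passed the minimum, 7 toward q1 and 2 toward q2. The 2 were Emr1, with 85.8 and 146 fragments, and Ly6c2, with 59.4 and 208. Over all 20 markers the fragments summed to 1699 in q1 and 1105 in q2. Csf1r, the macrophage growth factor receptor, had 188 and 78.8, and C1qc, a complement chain below the minimum, had 79.4 and 24.1. None of the 20 was below 1 fragment in either column. All 14 marginal zone genes were higher in q1 beside Lair1 too, and the part of either group in these differences was not tested.

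The adhesion receptors were level. Pecam1 (chromosome 11, 106654217 to 106750628), or CD31, had 3415 ± 295 fragments in q1, against 3537 ± 305 in q2, at 0.05 ± 0.18. Endothelial and stromal markers summed to 150 and 98.1 fragments over 17 genes, and platelet markers to 306 and 478 over 12. Of the platelet sum, Itgb3 held 198 and 373 fragments and Gp1ba 79.0 and 71.9. Of the 12 platelet markers, 6 were below 1 fragment in q1 and 5 in q2. Pf4, a defining platelet gene, was at 0 in q1 and 0.44 in q2, and Vwf, made by endothelium and megakaryocytes, was at 3.14 and 3.30. Which cells supplied the Pecam1 fragments was not tested. Its ligand gene Cd38, the ADP-ribosyl cyclase, had 7718 and 7989 fragments, at 0.05 ± 0.18.

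Ceacam1 (chromosome 7, 25461707 to 25477603), a homophilic adhesion receptor, had 1216 ± 189 fragments in q1, against 1314 ± 182 in q2, at 0.11 ± 0.30. Its close paralog Ceacam2, annotated beside it, had 970 and 686 fragments, at -0.50 ± 0.35. Because their sequences are nearly identical over long stretches, the split of reads between them is uncertain. Summed over both rows there were 2185 ± 241 fragments in q1 and 2000 ± 224 in q2, at -0.13 ± 0.23, so the sum and Ceacam1 alone pointed in different directions, both within 1 SD. The SDs of the sum treat the rows as independent, which may not hold where reads are split between them.

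Cd5 was near the floor of the set. Cd5 (chromosome 19, 10717116 to 10739002), a scavenger receptor family protein of T cells and B-1a cells, had 71.0 ± 14.7 fragments in q1, against 72.5 ± 15.0 in q2, at 0.03 ± 0.42. Of 17 T cell markers 16 were higher in q2. Only 6 of the 17 passed the minimum, 5 toward q2 and 1 toward q1, and 2 of the 6 lay within 1 deposited SD. The markers ranged from Icos, with 6.93 and 10.4 fragments, to Cd2, an adhesion receptor, with 1740 and 1859. Cd3e, a chain of the T cell receptor complex below the minimum, had 22.8 and 36.4. The kinase Lck had 524 and 689, while Zap70, at 238 and 166, was the marker higher in q1. Of the 8 B-1 list genes past the minimum, 5 were higher in q2 and 3 in q1. Spn, encoding CD43, had 124 and 421 fragments, and Ahnak had 561 and 1963, while Nid1, at -0.44 ± 0.20, Plscr1, at -0.36 ± 0.28, and Zbtb20, at -0.18 ± 0.24, lay toward q1. Which cells supplied the Cd5 fragments was not tested.

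**Figure D3:**
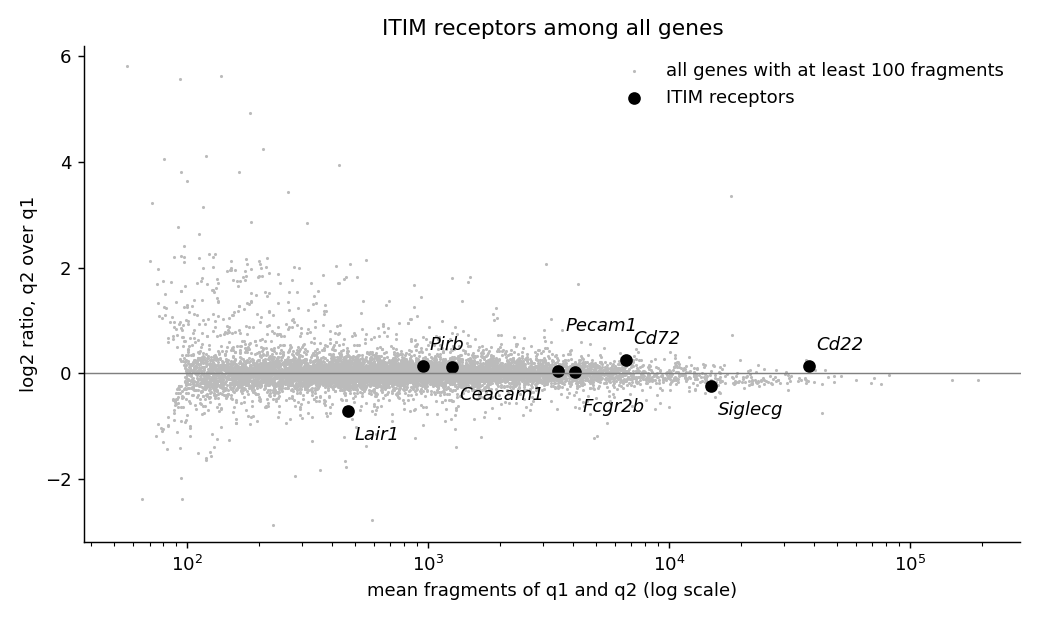
Log2 ratio of q2 over q1 (vertical) against the mean fragments of both columns (log scale) for the 9582 genes with at least 100 fragments (grey) and the 8 ITIM receptors among them (black). Lair1, at -0.72, lies at the lower edge of the grey cloud, and the other receptors lie between -0.25 and 0.25.

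The deposited variances lay close to those of genes of like count for most receptors and farthest from them for Ceacam1. The coefficient of variation (SD over count) was 8.59% for Fcgr2b and 8.64% for Pecam1 in q1, where the running median over 100 genes of like count was 8.60% and 8.63%. It was 10.6% for Lair1 in q1 and 12.1% in q2, beside running medians of 10.7% and 12.2%. Of the genes of like count, 91% had a higher coefficient of variation than Lair1 in q1 and 68% in q2. These ranks separate values that lie close together. Without values per library, they do not show how reproducible Lair1 was. If the variances were set from genes of like count, closeness to the running median would follow from that. It is therefore not read as a measure of each receptor's own spread. For Cd72 the coefficient of variation was 9.03% in q1, beside a running median of 8.64%. Ceacam1 stood at 15.6% in q1 and 13.8% in q2, where genes of like count had 9.32% and 9.23%. The deposited dispersion variance was 76.6% of the size of the whole variance of Ceacam1 in q1 and 83.5% in q2. In the other receptors it was between 98.0% (Cd22 in q1) and 101% (Cd72 in q1). It exceeded the whole variance for Cd72 in q1 and for Lair1 in both columns, so it is not a plain share of it. No gene had a deposited variance from isoform assignment above 0.

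**Figure D4:**
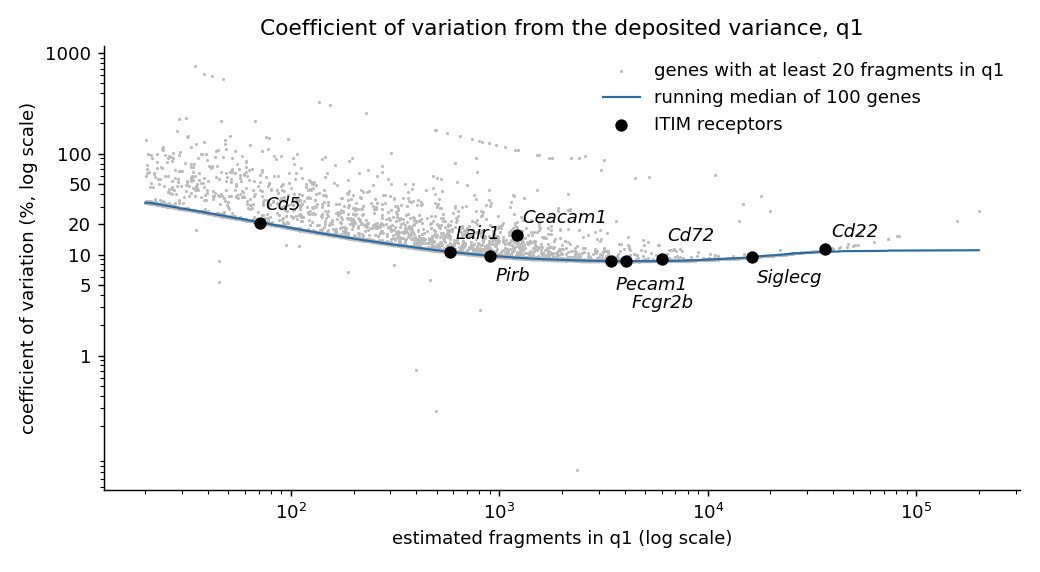
Coefficient of variation in q1, from the deposited variance (log scale), against estimated fragments in q1 (log scale) for genes with at least 20 fragments (grey), with the running median of 100 genes (line) and the ITIM receptors (black). Ceacam1, at 15.6%, stands above the line, and the other receptors lie on or close to it.

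Of the 20 enzymes and adaptors that act at the motifs, 15 lay within 1 deposited SD of 0. Beyond it, 3 lay toward q1 and 2 toward q2, where 8.41% and 11.1% of all genes did. All 20 kinases, phosphatases and adaptors on the list passed the minimum, and none was 2-fold apart, beside 2.28% of all genes. With 12 toward q1 and 8 toward q2, their median log2 ratio was -0.03, beside 0.00 for all genes. Ptpn6, encoding SHP-1, had 13646 and 13777 fragments, at 0.01 ± 0.19. Ptpn11, encoding SHP-2, stood at 0.00 ± 0.18, and Inpp5d, encoding SHIP-1, at -0.08 ± 0.18. Lyn had 10268 and 9951 fragments, at -0.05 ± 0.18. The largest ratios were those of Dok2, a docking adaptor, with 152 and 93.3 fragments at -0.70 ± 0.35, of Blk, a B cell Src family kinase, at -0.38 ± 0.19, of Pag1, the membrane anchor of the kinase Csk, at 0.37 ± 0.18, and of Inppl1, encoding SHIP-2, at -0.29 ± 0.22. Only Pag1 was more than 2 deposited SD apart, beside 6.26% of all genes, and Csk itself stood at 0.04 ± 0.18.

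On the activating side, ratios of the genes past the minimum reached at most 0.28 in size. The heavy chain genes Ighm and Ighd were on the list but not in the table, so the whole receptor was not measured. Of the 18 B cell receptor and co-receptor genes in the table, 17 passed the minimum. Atp2b4, at 10.9 and 29.3 fragments, did not. They had a median of 0.03, with 7 toward q1 and 10 toward q2. None was 2-fold or 2 deposited SD apart, beside 2.28% and 6.26% of all genes. Cd81, a tetraspanin, stood at -0.28 ± 0.18, Cr2 at -0.20 ± 0.30, the exchange factor Vav2 at -0.19 ± 0.18, and the kinase subunit Pik3cd at 0.21 ± 0.18. Syk, the kinase that the ITIM phosphatases counter, stood at 0.03 ± 0.20.

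Of 31 other inhibitory receptors that the table lists, only 11 passed the minimum, 6 toward q1 and 5 toward q2, with a median of -0.02. The 3 beyond 2 deposited SD were Lilrb4, Sirpa and Fcrl5, all higher in q1, beside 2.11% of all genes. Fcrl5, an Fc receptor-like protein typical of marginal zone B cells, had 6716 and 4677 fragments, at -0.52 ± 0.18. Cd300lf, a lipid-binding receptor, stood at -0.33 ± 0.27. Btla, which pairs with HVEM, had 6997 and 8352 fragments, at 0.26 ± 0.18, and Fcrl1 had 7064 and 6976, at -0.02 ± 0.18. Tigit (8.2 and 65.1 fragments) and Ctla4 (24.0 and 61.3), both checkpoint receptors, lay below the minimum.

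**Figure D5:**
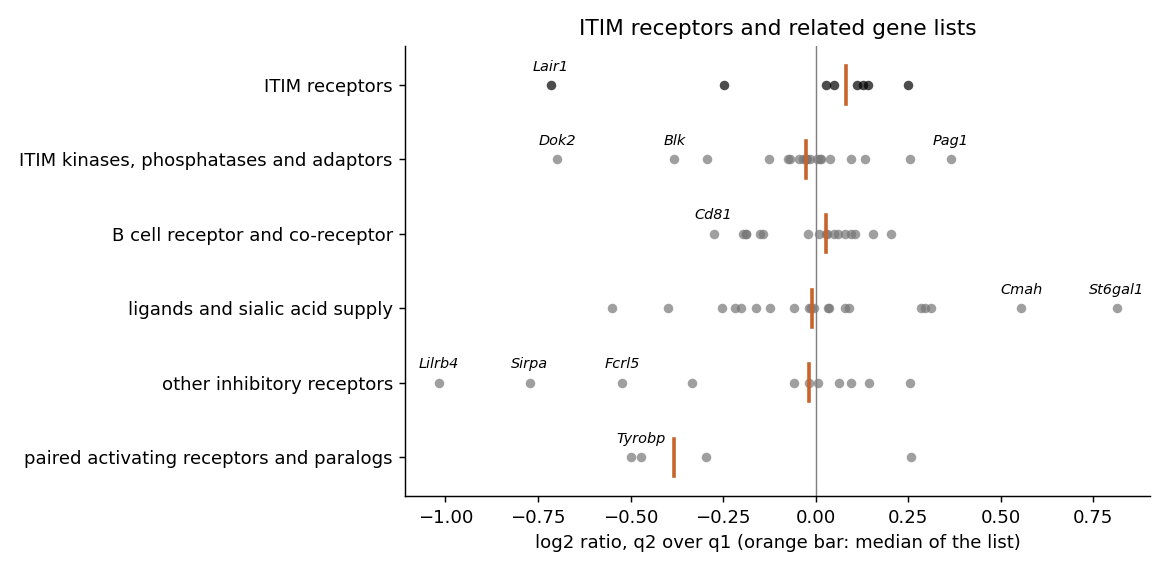
Log2 ratio of q2 over q1 for each gene with at least 100 fragments in the ITIM receptor set and in 5 related lists, with the median of each list as an orange bar. The ITIM receptors have a median of 0.08, the kinase and phosphatase list -0.03, and the genes farthest from 0 are Lilrb4 at -1.02, St6gal1 at 0.81 and Sirpa at -0.77.

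By position, 5 of the 9 receptors lie on chromosome 7, among them Pirb and Lair1 in the cluster of leukocyte receptor genes near its start. The nearest genes past the minimum were closer to 0 than Lair1 itself: Leng8 stood at -0.11 ± 0.18 and Leng9 at -0.42 ± 0.26 on one side, and Pira2 at 0.26 ± 0.33 on the other. Next to Fcgr2b, Fcrla, a B cell Fc receptor-like gene, had 5874 and 6313 fragments, at 0.10 ± 0.18. Next to Pecam1, Milr1, another ITIM receptor, had 331 and 354, at 0.10 ± 0.29.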

How the data were processed

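Libraries were made with an Illumina TruSeq kit, per the labels' protocols. The submitters' processing notes name cutadapt 1.8.1, TopHat2 2.0.14, Cuffdiff 2.2.1 and mm10. No source used here states the annotation, settings or strand handling. The deposited table, per the file headers, holds an estimated count of fragments per gene for each of 2 conditions with its variance, pooled over libraries. Columns were matched to no genotype. From these the log2 ratio of q2 over q1 (pseudocount 1) and its SD were computed with pandas 2.3.3 and numpy 2.4.6, and fold (2 and 1.5) and SD (1 and 2) rules were counted over genes with at least 100 fragments; no test was made. The calculation was checked on simulated data.

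Gene positions and lengths came from GENCODE M21 (GRCm38). The receptors and lists were chosen with earlier results of these data known. The rule for named genes took all receptors, 11 fixed genes and the 4 largest ratios of each list; others named were chosen after their values were seen, as were the neighbouring genes. Not all genes the rule gave are reported. The marker lists not described above summed, in q1 and q2, to 88.1 and 83.9 fragments for neutrophils, 602 and 762 for dendritic cells, 463 and 515 for NK cells, 3124 and 3666 for T cells and 3096 and 4876 for B-1 cells. The 23 paired activating receptors and paralogs in the table had 4 members past the minimum, 3 of them higher in q1, with a median log2 ratio of -0.38.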

Additional observations from a re-analysis of the deposited data

How the results depend on the processing

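No paired analysis was possible because q1 and q2 are pools without replicate numbers. For the same reason, leaving out a library and the count tests, normalizations and filters planned for single libraries were not run. With pseudocounts of 0 and 10, equal totals and median-ratio scaling, all 36 recomputed log2 ratios of the 9 receptors stayed within 1 deposited SD and kept their sign, and Lair1 ranged from -0.72 to -0.70. Scaling could move these ratios little, because the log2 ratio of the column totals was -0.02 and the median log2 ratio 0.00. The counts of receptors past each fold and SD rule did not change by more than 1.5 times, minimums of 20 and 500 fragments included. The search without serine at the first position was added after seeing the data and still matched all 9. Cd5 then matched at tyrosine 401, 93 residues from the C-terminus and not shown above. The stretches shown for Cd5 tyrosine 464, Siglecg tyrosine 682, Pirb tyrosine 824 and Lair1 tyrosine 257 begin with serine and did not match.

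The levels depend on transcript length. With the median annotated length they became, in q1 and q2, 29024 and 31739 fragments per kb for Cd22, 5021 and 4227 for Siglecg, 5708 and 6783 for Cd72, 2775 and 2829 for Fcgr2b, 309 and 342 for Pirb, 492 and 299 for Lair1, 1142 and 1182 for Pecam1, 793 and 857 for Ceacam1, and 40.0 and 40.8 for Cd5. The sums became 45304 and 48299, and the Cd22 share 64.1% and 65.7%. With a minimum of 20 fragments, 1 B cell receptor gene came to be 2-fold higher in q2, 1 ligand gene in q1, 3 other inhibitory receptors in q2, and 2 paired activating genes in q1 and 1 in q2, whose median became 0.25, since more genes were counted. Lilrb4, just past 2-fold, left 0 other inhibitory receptors 2-fold higher in q1 with a pseudocount of 10 or equal totals. Depth limits Cd5 most: its SD was 20.7% of its count.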

Other observations

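The balance among the receptors inside a column differed between q1 and q2 mainly through Lair1. Of the 36 pairs of receptors, 6 had a ratio that changed by more than 2 SD between the columns, and all 6 included Lair1, so they are not independent of its own difference. For each Lair1 fragment there were 10.5 Cd72 fragments in q1 against 20.5 in q2, a log2 change of 0.97 ± 0.30. Among pairs without Lair1, the largest change in SD units was that of Siglecg to Cd72, which went from 2.68 to 1.90, at -0.50 ± 0.27. The ratio of Cd22 to Siglecg, the pair of sialic acid receptors, went from 2.26 to 2.93, at 0.38 ± 0.30. These pairs were chosen after their values were seen and have no replicate check.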
